A study of Homo sapiens with 6 samples.

Results

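Integrins are cell surface receptors made of 1 alpha and 1 beta subunit that hold cells to the extracellular matrix and to other cells, and laminins are matrix proteins of basement membranes made of 1 alpha, 1 beta and 1 gamma chain. The choice of alpha and beta subunit sets which matrix protein an integrin binds, and short beta tails inside the cell recruit talin and kindlin, which switch the receptor on. In glioma, integrins and laminins are known for their part in invasion along blood vessels and brain matrix. Members were the probe sets whose annotation gave 1 symbol of an integrin alpha subunit, an integrin beta subunit from ITGB1 to ITGB8, or a laminin chain. This rule found 35 genes, each with 1 probe set, of 18417 genes named in the same way: 25 integrin subunits and 10 laminin chains. It used no measured value other than that the brightest probe set of a gene was to be taken, a choice that never arose here. No probe set carried ITGA1 or LAMA3 as its single symbol, and these genes were not analysed here.

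A172, T98G and U87MG are established cell lines from glioblastoma, the most malignant glioma of adults. For every line 1 array held RNA of cells that had received a negative control, and 1 array held RNA of cells that had received pre-miR338-5p, a precursor of the microRNA miR-338-5p, called the mimic here. Cells were harvested 24 hours after transfection, and all 6 cultures had been transfected and grown in serum. The study was set up to find targets of this microRNA. Whole-transcript Affymetrix arrays were used, and expression is given as log2 RMA level, on which a difference of 1 is a 2-fold change. Levels of different probe sets are not compared with each other. Over all probe sets, Pearson's r was 0.992 to 0.993 between the control and the mimic array of a line and 0.954 to 0.962 between lines. The lowest 25% of genes by mean level were left out of the tests, which set a filter level of 4.28 and kept 13813 genes, among them 30 of the 35 members (21 integrin and 9 laminin genes). ITGA10, ITGA2B, ITGAL, ITGB6 and LAMB4 lay below it, with all their values between 3.32 and 4.29.

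As a check of the cell type, VIM and CD44, both common in glioblastoma lines, stood at 11.88 to 12.65 and at 11.48 to 11.90. GFAP, the filament protein of astrocytes, stood at 5.07 to 5.39. Of the 12 glioma and astrocyte markers 9 were above the filter. Among them SOX9 stood at 6.54 to 7.36, NES was highest in A172, at 7.29 and 7.15, and SLC1A3, a glutamate transporter of astrocytes, was at 8.02 and 7.89 in U87MG and below the filter level in A172. Also among the 9, SOX2, OLIG2 and ALDH1L1 lay near the filter level, at 4.03 to 4.66, 4.06 to 4.96 and 4.28 to 4.83. The astrocyte markers S100B, AQP4 and FABP7 lay below the filter level on all 6 arrays.

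The mature microRNA is shown because its seed (bases 2 to 8, in capitals) is the stretch that pairs with target messenger RNAs. It lies at chr17:81125923-81125944 on the minus strand of GRCh38.p14, and the sequence is that of RefSeq.
hsa-miR-338-5p: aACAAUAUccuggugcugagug
Of 2370 mature human microRNAs listed there, 1 carried the seed ACAAUAU, miR-338-5p itself. Target sites in the members' transcripts were not analysed here.

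The 3 lines differed in the level of most integrins and laminins. A172 was the highest line for ITGA6, ITGA3 and ITGB4 and for the laminin chains LAMA2, LAMA5 and LAMB2. T98G was the highest for ITGA8, ITGA4 and ITGB8 and for LAMA4, LAMB1 and LAMB3. U87MG was the highest for ITGB3, ITGA5, ITGA7 and ITGA2 and for LAMA1. Of the 30 tested members 23 differed between the lines by limma's F test (adjusted p under 0.05), or 76.7%, against 67.5% of all genes tested, so a call by itself was common in these lines. A range of at least 1 between the highest and lowest line mean together with a call was found in 17 members, or 56.7%, against 23.8% of all genes. A range of at least 2 was found in 7 members, against 7.89% of all genes. The median range was 1.29 over the members and 0.535 over all genes tested. These counts and medians describe the list and were not tested. In bulk RNA, fewer cells that express a gene and less of its RNA per cell cannot be told apart.

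Pairwise, 20 of the 30 members differed between T98G and A172, 19 between U87MG and A172 and 21 between U87MG and T98G, against 50.5%, 54.2% and 47.1% of all genes tested. Among the 23 members called by the F test, A172 was the highest line for 6, T98G for 9 and U87MG for 8, against 23.9%, 21.1% and 22.5% of all genes tested. The lowest line was A172 for 7, T98G for 10 and U87MG for 6, against 23.8%, 20.8% and 22.8%. The 2 arrays of a line differ in the transfected RNA and are not replicate cultures of 1 condition. The model removed the mean mimic response. The spread behind these tests is how that response differed between lines, mixed with culture and array noise. With 1 array per line and group, these parts cannot be told apart. The p-values therefore do not measure the spread between cultures of the same line and group by itself.

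**Figure D1:**
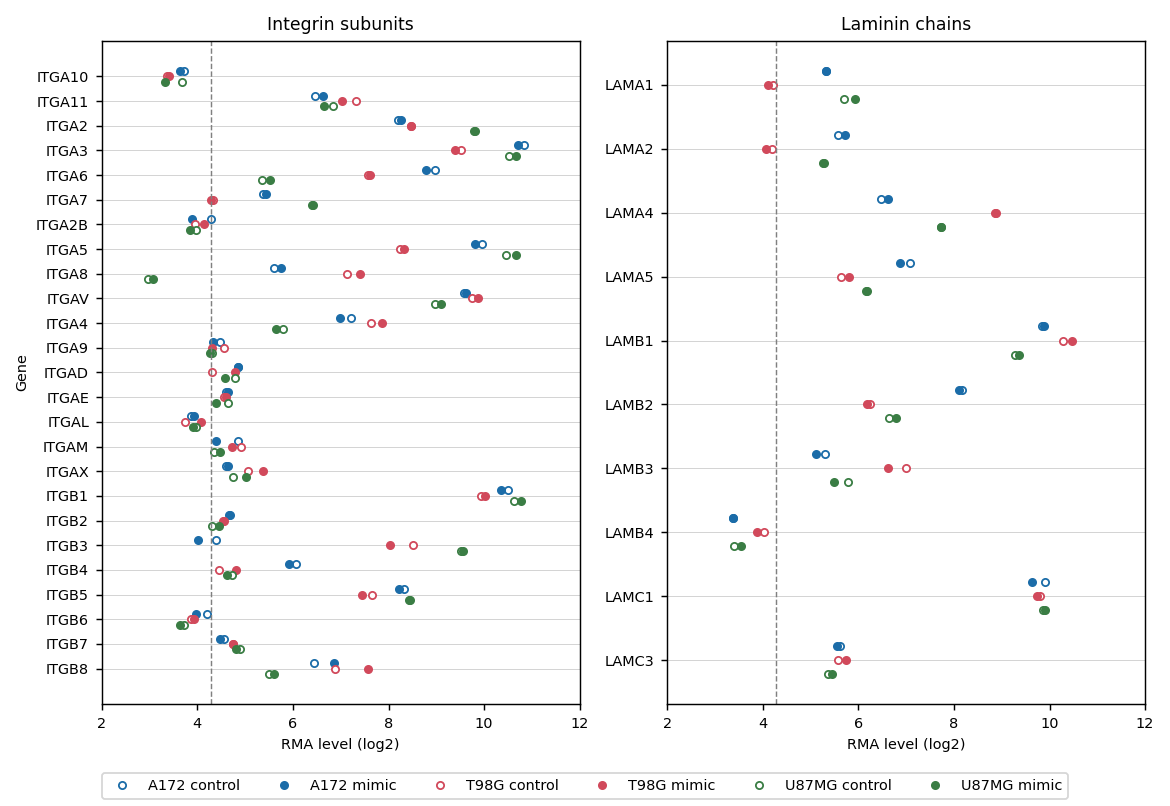
RMA level (log2, x axis) of each of the 35 integrin and laminin genes on each of the 6 arrays, with control arrays as open points, mimic arrays as filled points and the filter level of 4.28 as a dashed line. Open and filled points of a line lie close together, while the lines stand apart, most of all for ITGB3, ITGA8 and ITGA6.

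**Figure D2:**
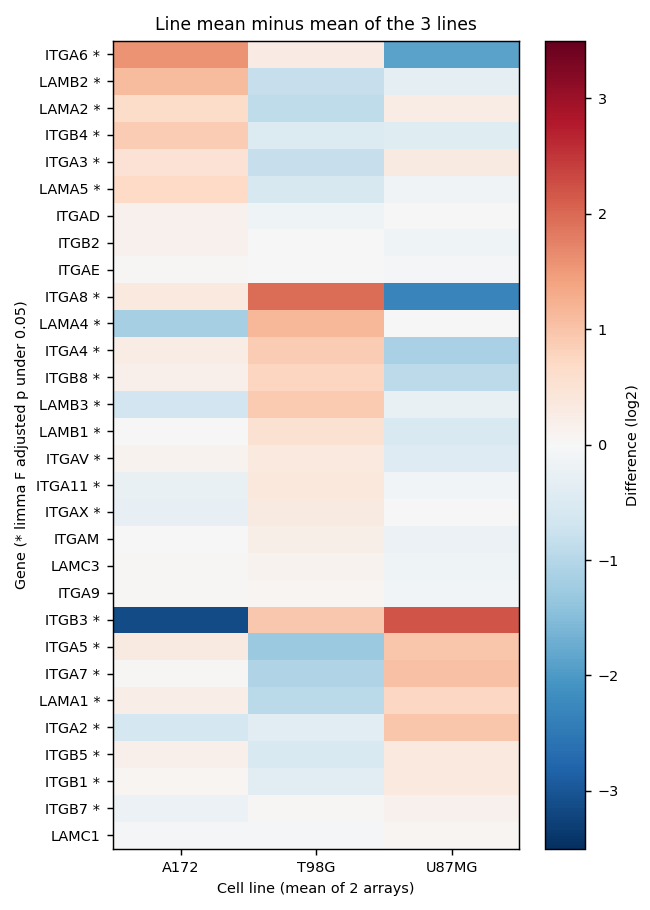
Mean of the 2 arrays of each line minus the mean of the 3 lines (log2, colour) for the 30 genes above the filter, grouped by the line where the gene was highest, with a star where limma's F test gave an adjusted p under 0.05. ITGB3 has the widest range, 5.34, and LAMC1 shows almost none, at 0.12.

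Among the alpha subunits that bind laminin, ITGA6, which pairs with β1 or with β4, differed most. It stood at 8.97 in the A172 control and 8.79 with the mimic, at 7.58 and 7.62 in T98G, and at 5.35 and 5.51 in U87MG. No 2 lines overlapped, and A172 exceeded U87MG by 3.45, or 10.9-fold (limma F adjusted p = 2.63e-06). ITGA7, the laminin receptor of muscle, had another order of lines: it was at 5.38 and 5.43 in A172, at 4.33 and 4.28 in T98G and at 6.41 and 6.39 in U87MG, where it was highest (range 2.09, adjusted p = 9.36e-06). Its T98G values were at the filter level, so the size of this range is uncertain. ITGA3, a receptor for laminins of epithelia, was lower in T98G, at 9.51 and 9.39, than in A172, at 10.84 and 10.71, and U87MG, at 10.52 and 10.66. A172 and U87MG did not differ by the test for ITGA3 (difference -0.18, limma adjusted p = 0.19).

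ITGB4, which pairs only with α6 and links epithelial cells to laminin in hemidesmosomes, was highest in A172 as well. Its levels were 6.06 and 5.91 there, 4.45 and 4.81 in T98G, and 4.73 and 4.63 in U87MG. T98G and U87MG overlapped (difference 0.05, limma adjusted p = 0.796), and A172 was above T98G by 1.36. Over the 6 epithelial markers, 4 of them above the filter, the summed log2 level was 39.15 and 39.76 in A172, 32.81 and 32.17 in T98G, and 32.38 and 31.65 in U87MG. KRT8, a keratin of simple epithelia, stood at 10.41 and 10.49 in A172 and at or below 5.63 on the other arrays, and KRT18, its partner, had line means of 10.80, 9.39 and 8.54 in A172, T98G and U87MG. The other markers did not follow: EPCAM was highest in U87MG (line means 4.43, 3.78 and 4.79 in the same order), KRT14 did not pass (limma F adjusted p = 0.233), and CDH1 and KRT5 had means below the filter level. The part of such expression in the level of ITGA6 and ITGB4 was not tested.

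Of the collagen-binding subunits, ITGA2 marked U87MG. It stood at 9.81 and 9.79 there, against 8.20 and 8.26 in A172 and 8.48 and 8.47 in T98G, a range of 1.57 (limma F adjusted p = 2.38e-05). A172 and T98G did not pass the test against each other for ITGA2 (difference 0.25, adjusted p = 0.0561). ITGA11, a collagen receptor of fibroblasts, differed less, with line means of 6.55 for A172, 7.18 for T98G and 6.74 for U87MG (adjusted p = 0.0112).

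Other alpha subunits bind RGD, the short peptide motif of fibronectin and vitronectin. ITGA8, which pairs with β1, was at 7.14 and 7.40 in T98G, at 5.61 and 5.74 in A172, and at 2.96 and 3.07 in U87MG. The U87MG values lay below the filter level, so the size of the gap of 4.25 between T98G and U87MG is uncertain, while the order of the lines was the same on control and mimic arrays (limma F adjusted p = 7.53e-07). ITGA5, the fibronectin receptor subunit, stood at 10.46 and 10.66 in U87MG, at 9.95 and 9.82 in A172 and at 8.25 and 8.33 in T98G. The U87MG mean exceeded that of T98G by 2.27, or 4.82-fold. ITGAV, the alpha subunit shared by β3, β5, β6 and β8, varied less: its line means were 9.60 for A172, 9.82 for T98G and 9.03 for U87MG, and A172 and T98G did not pass against each other (adjusted p = 0.0834).

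ITGB3 had the widest range of all members. It was at 9.52 and 9.55 in U87MG and at 8.52 and 8.03 in T98G, but at 4.38 and 4.02 in A172, around the filter level. The range of 5.34 (limma F adjusted p = 1.17e-06) would be 40.5-fold, and it is uncertain in size because 1 of the A172 values lay below the filter level. U87MG also exceeded T98G, by 1.26 (adjusted p = 0.000414). Platelets carry ITGB3 too. Of 5 platelet markers 2 were above the filter, and GP1BA, PF4 and PPBP had means below its level. The summed log2 level of the 5 was 21.14 to 21.87 on control and 20.7 to 21.62 on mimic arrays, lowest in U87MG. The part of such expression in the level of ITGB3 was not tested. Of the other β subunits that pair with αV, ITGB8, a receptor that activates latent TGF-beta, was highest in T98G, with line means of 6.65 for A172, 7.22 for T98G and 5.56 for U87MG (adjusted p = 0.000207). ITGB5, a vitronectin receptor, was lowest in T98G, with line means of 8.27 for A172, 7.55 for T98G and 8.44 for U87MG. The αV partners thus differed in their order: β3 was lowest in A172, β5 in T98G and β8 in U87MG.

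ITGB1, the partner of most alpha subunits, had line means of 10.43 for A172, 9.97 for T98G and 10.70 for U87MG. T98G was below both other lines (limma adjusted p = 0.0101 against A172 and 0.00148 against U87MG), while U87MG and A172 did not pass (0.0671). ITGA4, which pairs with β1 to bind VCAM1 and fibronectin, stood at 7.63 and 7.86 in T98G, at 7.22 and 6.98 in A172 and at 5.79 and 5.65 in U87MG. Its range was 2.02 (F adjusted p = 5.53e-05). ITGA9, the relative of ITGA4 that binds tenascin, lay near the filter level on all arrays, at 4.26 to 4.56, and did not pass (F adjusted p = 0.333).

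Subunits of leukocyte integrins lay near the filter level in every line, with all their values between 3.75 and 5.38. ITGAX differed between lines (range 0.59, limma F adjusted p = 0.00587) and ITGB7, the partner of α4 and αE in lymphocytes, did so narrowly (range 0.34, adjusted p = 0.0302). ITGAD, ITGAE, ITGAM and ITGB2 did not pass (adjusted p from 0.0664 for ITGB2 to 0.679 for ITGAE). Of 8 measured leukocyte markers 5 were above the filter, and PTPRC, the pan-leukocyte gene, had values from 2.66 to 4.35. CD68, a lysosomal protein of macrophages that other cells also make, stood at 8.29 to 10.40 and TYROBP, a myeloid signalling adaptor, at 5.83 to 6.05. The summed log2 level of these markers was 36.34 to 39.34 on control arrays and 36.52 to 39.26 on mimic arrays. The sums were lowest in T98G, where ITGAX was highest, and their part in the level of ITGAX was not tested.

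Laminin alpha chains, which carry the main integrin-binding site of the trimer, each differed between the lines. LAMA4, a chain of vessel and muscle laminins, was at 8.85 and 8.88 in T98G, at 7.73 and 7.72 in U87MG and at 6.48 and 6.63 in A172. The 3 lines did not overlap (range 2.31, limma F adjusted p = 7.6e-06). LAMA1, the chain of the embryonic laminin, was at 5.69 and 5.92 in U87MG, at 5.32 on both arrays of A172, and at 4.21 and 4.11 in T98G, below the filter level. LAMA2, the muscle and glial limiting membrane chain, was also lowest in T98G, at 4.19 and 4.06, with 5.58 and 5.72 in A172 and 5.29 and 5.26 in U87MG. LAMA5, the chain of most adult basement membranes, had line means of 6.98 for A172, 5.72 for T98G and 6.17 for U87MG (adjusted p = 0.000264). T98G was thus the lowest line for LAMA1, LAMA2 and LAMA5 and the highest for LAMA4.

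The beta chains were split as well. LAMB2, the β chain of mature neuromuscular and kidney basement membranes, was at 8.16 and 8.10 in A172, at 6.24 and 6.18 in T98G and at 6.64 and 6.78 in U87MG, a range of 1.92 (limma F adjusted p = 1.72e-05). LAMB1, the more widespread β chain, was highest in T98G, the lowest line for LAMB2, with line means of 9.86 for A172, 10.37 for T98G and 9.31 for U87MG (adjusted p = 0.000231). LAMB3, a chain of the epithelial laminin that anchors skin, was at 6.99 and 6.62 in T98G, at 5.78 and 5.50 in U87MG and at 5.31 and 5.12 in A172 (range 1.59, adjusted p = 3.26e-05). LAMB3 was thus not highest in the line where ITGB4 and KRT8 were highest.

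LAMC1, the gamma chain of most laminin trimers, did not pass between lines: it stood at 9.91 and 9.63 in A172, at 9.79 and 9.74 in T98G and at 9.86 and 9.90 in U87MG (limma F adjusted p = 0.541). LAMC3 did not pass either (line means from 5.41 to 5.66, adjusted p = 0.124). All 7 tested alpha and beta laminin chains therefore differed between the lines, while neither tested gamma chain passed.

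Promoters are shown for 3 members that span the patterns above: ITGA8, with the widest range among members listed in the RefSeq promoter table, LAMC1, which did not pass between lines, and ITGB8, with the largest mean change after the mimic. The 250 bases before the start are printed, from RefSeq on GRCh38.p14. Windows from 250 bases before the start to 50 after it were searched on both strands for GGGCGG (the GC box), TGANTCA (the AP-1 site), CCAAT (the CCAAT box) and TATAAA (the TATA box), and capitals mark every match, including overlapping ones.
ITGA8, chr10:15719923-15720172, minus strand: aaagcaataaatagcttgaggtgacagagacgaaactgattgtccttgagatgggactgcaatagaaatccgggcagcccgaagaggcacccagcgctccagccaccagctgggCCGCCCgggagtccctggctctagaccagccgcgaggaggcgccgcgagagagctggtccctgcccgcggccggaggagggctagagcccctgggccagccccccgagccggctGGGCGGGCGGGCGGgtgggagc
LAMC1, chr1:183023170-183023419, plus strand: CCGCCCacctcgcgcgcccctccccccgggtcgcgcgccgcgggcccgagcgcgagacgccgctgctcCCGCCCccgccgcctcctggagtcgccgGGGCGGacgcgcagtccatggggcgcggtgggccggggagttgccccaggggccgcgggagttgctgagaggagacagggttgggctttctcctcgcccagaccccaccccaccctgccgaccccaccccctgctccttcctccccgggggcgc
ITGB8, chr7:20330650-20330899, plus strand: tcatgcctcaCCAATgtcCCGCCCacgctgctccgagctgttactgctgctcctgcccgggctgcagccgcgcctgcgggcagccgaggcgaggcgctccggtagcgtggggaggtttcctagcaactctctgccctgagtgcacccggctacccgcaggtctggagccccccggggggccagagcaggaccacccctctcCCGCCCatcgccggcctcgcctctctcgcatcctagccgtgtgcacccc
The GC box matched 4 times in ITGA8, 3 times in LAMC1 and 2 times in ITGB8, and ITGB8 also held 1 CCAAT match. A GC box was found in 18 of 31 windows of the 24 members listed, or 58.1%, against 45.0% of all 35116 promoter windows of the same length. A CCAAT match was found in 19.4% of member windows against 34.6%, an AP-1 match in 6.45% (ITGA5 and LAMB3) against 7.71%, and a TATA match in 6.45% (ITGA6 and ITGB1) against 11.5%. Several genes have more than 1 window and some windows of a gene overlap, so these shares only describe the windows. The GC box was present both in ITGA8, which differed strongly between lines, and in LAMC1, which did not pass.

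After the mimic, no integrin or laminin gene passed the test. In limma's fit with the cell line as a block, 0 of 30 members had an adjusted p under 0.05, against 1.11% of all genes tested (0.319% higher and 0.789% lower). At an unadjusted p under 0.05, 4 members were found, or 13.3%, against 11.8% of all genes: ITGB8 and ITGAX were higher, against 6.01% of all genes, and LAMB3 and ITGB3 were lower, against 5.83%. The median change over the members was 0.00616, beside 0.00679 over all genes tested, with 16 members positive and 14 negative. The sign was the same in all 3 lines in 9 members, or 30%, against 34.3% of all genes. The 95% interval of the change lay within 0.5 of 0 (1.41-fold) on both sides in 28 of the 30 members. Only those of ITGB3 and ITGB8 reached further. Each interval stands by itself, without adjustment for the number of members, and some of these members lay near the filter level. The intervals are therefore no firm bound on the changes of the members as a set.

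ITGB8 had the largest mean change. It went from 6.44 to 6.86 in A172, from 6.88 to 7.57 in T98G and from 5.50 to 5.61 in U87MG. It was higher in 3 of 3 lines, by 0.41 ± 0.29 (SD, n = 3; 95% interval 0.13 to 0.69), and did not pass in limma's fit (adjusted p = 0.228). Without T98G the change was 0.26. The change in T98G was the largest, and the control and mimic values of the groups overlapped across lines. Adjusted p lay between 0.0925 and 1 over the 10 alternatives. ITGB8 was also the single member past 0.5 within a line: 1 of 30 in T98G, against 3.71% of all genes there, and none in A172 or U87MG, against 3.68% and 3.22%. In any line it was 1 of 30, against 8.06% of all genes. A single line has no replicate arrays of a group, and these values carry no test.

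LAMB3 had the smallest p. It went from 5.31 to 5.12 in A172, from 6.99 to 6.62 in T98G and from 5.78 to 5.50 in U87MG. It was lower in 3 of 3 lines with little spread, at -0.28 ± 0.09 (SD, n = 3; limma adjusted p = 0.192, and 0.0725 to 1 over the alternatives). ITGAX, a subunit of a complement receptor of myeloid cells, went from 4.60 to 4.65, from 5.05 to 5.38 and from 4.75 to 5.01 in A172, T98G and U87MG, at 0.22 ± 0.14 (adjusted p = 0.381). Its levels were close to the filter level. CSF1R, a receptor of myeloid cells on the leukocyte marker list, was higher in 3 of 3 lines as well, at 0.26 ± 0.07 (limma adjusted p = 0.227). The list as a whole did not move with it: of its 5 tested markers 2 had positive and 3 negative changes, with a median of -0.00135. All arrays held RNA of cultured lines, and the relation of the CSF1R change to that of ITGAX was not tested. ITGB3 was lower with the mimic in A172 (-0.35, around the filter level) and T98G (-0.50) but not in U87MG (0.03), at -0.27 ± 0.27 (adjusted p = 0.414). Whether the lines differ in this change could not be tested with 1 array per line and group.

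**Figure D3:**
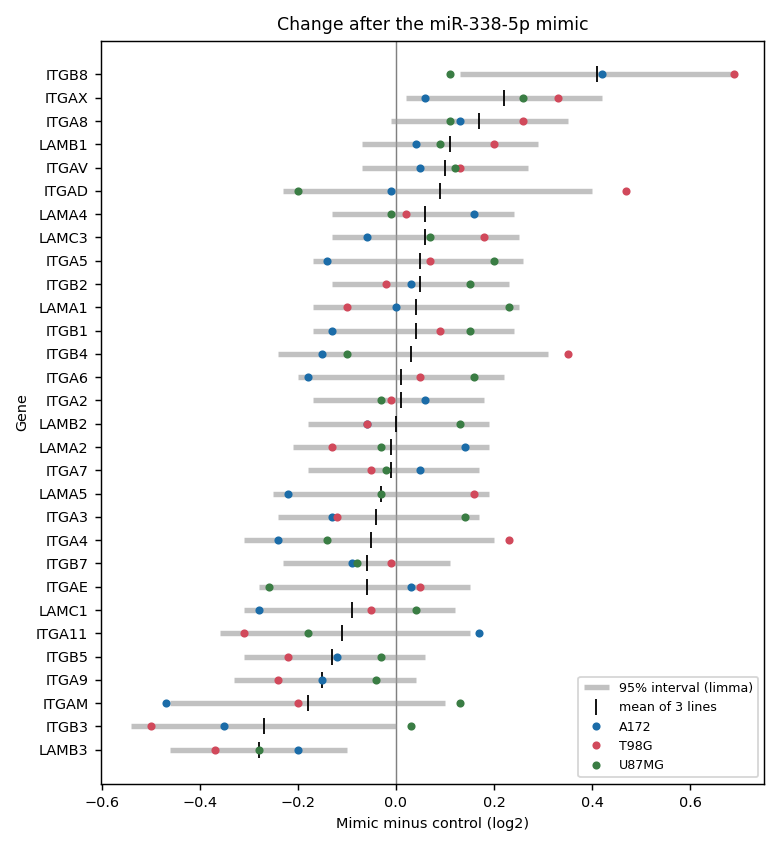
Mimic minus control (log2, x axis) of the 30 genes above the filter, ordered by the mean of the 3 lines (black tick), with each line as a coloured point and limma's 95% interval as a grey bar. ITGB8 lies furthest to the right, at 0.41, and LAMB3 furthest to the left, at -0.28, and no gene passed the adjusted test.

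The other members are given by role. The laminin-binding subunits ITGA3, ITGA6 and ITGA7 had changes from -0.04 to 0.01, and the collagen-binding ITGA2 and ITGA11 had 0.01 and -0.11. Among RGD-binding subunits ITGA8 was higher in 3 of 3 lines, at 0.17 ± 0.08, ITGAV likewise at 0.10 ± 0.04, and ITGA5 differed by 0.05 ± 0.17. None of these passed (limma adjusted p from 0.446 for ITGA8 to 0.987 for ITGA7). Of the remaining beta subunits ITGB5 was at -0.13 ± 0.09 and lower in 3 of 3 lines, ITGB1 at 0.04 ± 0.15 and ITGB4 at 0.03 ± 0.28, with opposite signs in T98G (0.35) and A172 (-0.15). The laminin alpha chains had changes from -0.03 to 0.06. LAMB1 was at 0.11 ± 0.08 and higher in 3 of 3 lines, LAMB2 was at 0.00 ± 0.11, and LAMC1 at -0.09 ± 0.17, most of it from A172 (-0.28), and LAMC3 at 0.06 ± 0.12. ITGA9 was lower in 3 of 3 lines, at -0.15 ± 0.10, and ITGA4 was at -0.05 ± 0.25. Among leukocyte subunits ITGB7 was lower in 3 of 3 lines, at -0.06 ± 0.04, while ITGAE was at -0.06 ± 0.18 and ITGB2 at 0.05 ± 0.09. ITGAD moved by 0.47 in T98G and -0.20 in U87MG, and ITGAM by -0.47 in A172 and 0.13 in U87MG. None of these passed either.

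**Figure D4:**
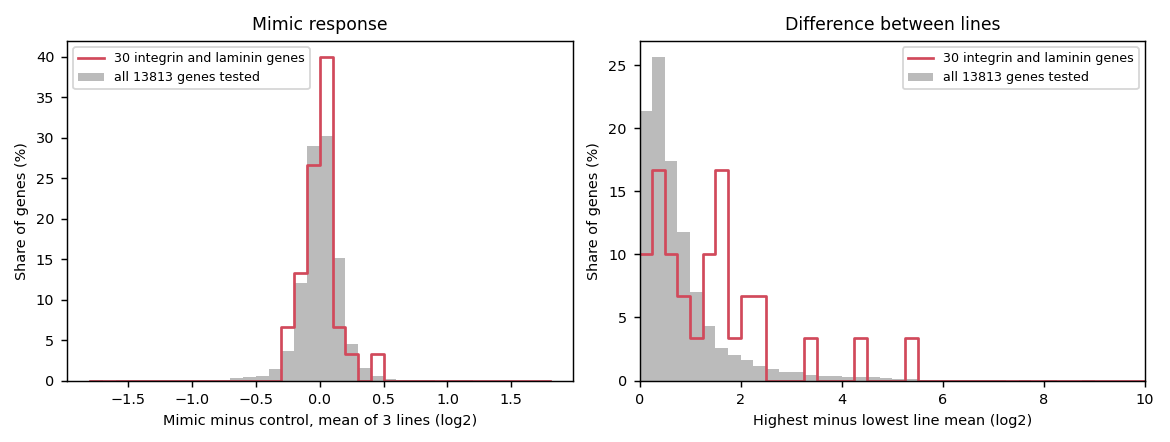
Share of genes (%, y axis) by change after the mimic (left, log2, mean of 3 lines) and by the gap between the highest and lowest line mean (right, log2), for all 13813 genes tested (grey bars) and the 30 integrin and laminin genes (red outline). The members' changes after the mimic lie between -0.28 and 0.41, while their gaps between lines reach 5.34, with a median of 1.29 against 0.535.

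Genes that act with integrins and laminins were looked at in 3 lists, and no gene of them passed in limma's fit. Among 34 tested integrin activators and adhesion adaptors, 0 rose and 0 fell, against 0.319% and 0.789% of all genes. At an unadjusted p under 0.05, 3 were lower and 0 higher, against 5.83% and 6.01% of all genes. FERMT2, or kindlin-2, which binds the tails of beta subunits and helps to activate them, came closest. It went from 8.88 to 8.38 in A172, from 8.04 to 7.67 in T98G and from 8.63 to 8.05 in U87MG, lower in 3 of 3 lines at -0.49 ± 0.11 (SD, n = 3; adjusted p = 0.0505). It passed in 4 of 10 alternatives, with adjusted p from 0.00193 to 1, so its side of the threshold depended on the processing. PARVB, a parvin of the complex that links integrins to actin, was at -0.24 ± 0.18, and RAP1B, a small GTPase that activates integrins, at -0.21 ± 0.12. Both had adjusted p = 0.37.

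Of 19 tested basement membrane partners and laminin receptors 0 rose and 0 fell, against the same shares of all genes. Negative changes were found in 15 of the 19, beside 6580 of all 13813 genes, and the median was -0.0456 beside 0.00679 over all genes, which describes the list and was not tested. CD82, a tetraspanin that associates with integrins, went from 7.82 to 7.20 in A172, from 8.10 to 7.68 in T98G and from 9.81 to 9.44 in U87MG. It was lower in 3 of 3 lines, at -0.47 ± 0.13 (limma adjusted p = 0.0631, passing in 3 of 10 alternatives, from 0.00277 to 1). SDC3, a heparan sulphate receptor, at -0.15 and CD9, another tetraspanin, at -0.12 followed and did not pass. Among 23 tested ligands other than laminins 0 rose and 0 fell, against the same shares, 1 was higher at an unadjusted p under 0.05, against 6.01% of all genes, and the median was 0.0166. VCAM1, the ligand of α4β1, went from 4.0 to 4.43 in A172, from 6.72 to 7.52 in T98G and from 3.51 to 3.55 in U87MG, at 0.43 ± 0.38 (adjusted p = 0.301), and at 0.24 without T98G. Its values in U87MG and the A172 control lay below the filter level. TNC, or tenascin C, was at 0.19 and COL3A1 at 0.18, and neither passed.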

How the data were processed

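The authors deposited 1 table of log2 values for 33297 probe sets on 6 arrays. Per the submitters' processing notes these came from RMA with the package oligo in R 3.0.1, which forces the probe values of all arrays to 1 common distribution, so that a shift of most genes in 1 direction is largely removed. For scan dates and batches: not given in the sources used here. Array medians lay between 5.06 and 5.14, and the number of arrays limits the precision.

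Gene symbols came from the array's annotation in GEO: 19460 probe sets had 1 symbol, 1754 had several and 12083 had none listed. The identifiers of 19429 matched the RefSeq table of GRCh38.p14, used for names, and 31 kept the older symbol. The brightest probe set stood for a gene.

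The two-sided tests were fitted with limma 3.58.1 under R 4.3.3 (lmFit, eBayes) on all 13813 genes, with 2 residual and 4.56 prior degrees of freedom, and p-values were adjusted over all of them by Benjamini-Hochberg. The mimic was tested with the line as a block, and the lines were tested with the group in the model. The lines pair the arrays: the correlation of the deviations of a line's arrays from their group means was 0.958 (A172), 0.951 (T98G) and 0.958 (U87MG). The code was tested on simulated data. No untransfected array was analysed here.

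The members and lists were chosen with earlier results of these data known, and the ranges of 1 and 2 were chosen after the values were seen. Array values are given for members with an unadjusted p under 0.05 and 1 sign, a change of at least 0.5 in a line, the 12 widest called ranges, or the highest mean of a role otherwise unnamed. Array values of further members (ITGA3, ITGB4, LAMA2, and ITGB3 after the mimic) were added, and markers were chosen for naming, after the values were seen. In other lists the 3 genes of smallest p are named.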

Additional observations from a re-analysis of the deposited data

How the results depend on the processing

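Under no alternative did an integrin or laminin gene pass after the mimic: the count was 0 with no filter, with the lowest 50% left out, with probe sets averaged, with arrays centred on their medians, with repeated quantile normalization, with a variance prior following expression and with the arrays of each line left out in turn (range 0 to 0). With no line block it was 0 too (0 members at an unadjusted p under 0.05, against 4), and 0 of all genes passed, against 153. Of all genes, 60 passed with no filter, 360 with the lowest 50% left out, 236 with centred arrays, 471 with the variance prior, 64 without A172 and 0 without U87MG. The count of members that differ between lines was 23 of the 30 tested, beside 9321 of all genes. It was 16 to 24 over the settings that keep all lines and 19 to 22 when 1 line was left out. The 16 came with the lowest 50% left out, where fewer members were tested and 7585 of all genes passed. The 24 came with no filter, with all 35 members tested and 9604 of all genes passing. When 1 line was left out, 6337 to 7682 of all genes passed. The median change was -0.0128 to 0.042 when 1 line was left out, and its sign also turned with no filter (-0.00431) and with centred arrays (-0.0101), so it has no settled direction. The count past 0.5 in any line, 1, was 2 with centred arrays, which added ITGB3 in T98G (2 there). It was 8 at a size of 0.3 (3 in A172, 7 in T98G) and 0 at a size of 1 (0 in T98G). Shares of all genes were not counted in these settings, so these counts have no background beside them. For the 12 widest line ranges the order of lines was the same on control arrays alone, with ranges from 1.37 to 5.15 there, as on mimic arrays. Signal near the filter level limits ITGB3 in A172, ITGA8 in U87MG and ITGA7, LAMA1 and LAMA2 in T98G, among others.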

Other observations

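The partners of integrins and laminins also differed between the lines. By limma's F test 21 of 23 tested ligands other than laminins were called, 19 of 19 basement membrane partners and 27 of 34 activators and adaptors, against 67.5% of all genes tested. Called ranges of at least 1 were found in 17, 11 and 9 of them, against 23.8% of all genes. The genes named here were chosen after their values were seen, for wide ranges or, for FN1, as the ligand of ITGA5. TNC, a ligand of α9β1 and αV integrins, stood at 10.37 and 10.68 in U87MG, at 6.71 and 6.76 in T98G and at 4.04 and 4.25 in A172, below the filter level of 4.28, so the range of 6.38 is uncertain in size. SPP1, or osteopontin, was highest in U87MG as well, at 11.39 and 11.46, against 8.74 and 8.72 in A172 and 6.21 and 6.02 in T98G. FN1, fibronectin, the ligand of ITGA5, had 11.58 and 11.60 in U87MG, 10.20 and 10.25 in T98G and 8.23 and 8.33 in A172. Its order of lines was not that of ITGA5, which was lowest in T98G. Other ligands with wide ranges were highest elsewhere: THBS2 (5.24) and COL3A1 (4.65) in A172 and THBS1 (4.56) in T98G. Among the 21 called ligands, A172 was the highest line for 9, T98G for 6 and U87MG for 6, against 23.9%, 21.1% and 22.5% of all genes tested.

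The nidogens, which join laminin to type IV collagen, had opposite orders. NID1 was at 9.59 and 9.38 in A172, at 8.01 and 8.07 in T98G and at 5.09 and 4.77 in U87MG. NID2 was at 4.16 and 4.31 in A172, at 7.78 and 7.69 in T98G and at 8.66 and 8.59 in U87MG, with 1 of the A172 values below the filter level. COL4A1, a chain of type IV collagen, followed the order of NID1, with 8.30 and 8.15, 6.98 and 6.91, and 4.45 and 4.49 in the same order of lines. Of the adaptors, TNS3, a tensin that binds integrin tails, was lowest in U87MG (range 3.94), and FYN, a Src-family kinase, was highest there (range 3.71, uncertain in size because 1 of its T98G values lay below the filter level).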
